A study of Mus musculus with 14 samples.

Results

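Heterotrimeric G proteins carry the signal of a membrane-spanning receptor into the cell. An activated receptor makes the α subunit swap GDP for GTP, the α subunit and the βγ pair then separate, and each acts on its own effectors until the α subunit hydrolyses its GTP; RGS proteins speed up that hydrolysis and so shorten the signal. In the cerebellar cortex, Purkinje cells use Gq-type α subunits and phospholipase Cβ in their response to glutamate, and they are known for high levels of the γ subunit gene Gng13 and of Rgs8. The 50 genes described here are the protein-coding mouse genes named Rgs or Gng with a number, the β subunit genes Gnb1 to Gnb5, the α subunit genes Gnai1 to Gnai3, Gnao1, Gnaq, Gna11 to Gna15, Gnal, Gnas and Gnaz, and Rgs7bp, which anchors RGS proteins of the R7 group at membranes. They were picked by symbol alone from 24100 genes in the table, 24045 of which had a symbol. They comprise 13 α, 5 β and 10 γ subunit genes, and 22 genes of the RGS set with Rgs7bp included.

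RNA was sequenced from mouse cerebellum at postnatal day 21. Every mouse carried Tg(Pcp2-L10a-EGFP), a transgene that tags ribosomal protein L10a with EGFP under the promoter of Pcp2, a gene of Purkinje cells. Translating ribosome affinity purification (TRAP) pulls the tagged ribosomes out of a homogenate with antibodies against GFP, and input is a small part of the homogenate supernatant kept aside. The groups were TRAP from Astn2 WT mice (3 libraries, 1 female and 2 male), TRAP from Astn2 KO littermates (4 libraries, 2 female and 2 male), input from WT (4 libraries, 1 female and 3 male) and input from KO (3 libraries, 2 female and 1 male); no group received a treatment. The strain background and the kind of KO allele are not given in the sources used here. Since the tag depends on the Pcp2 promoter, TRAP reports ribosome-bound RNA of cells in which that promoter is active, while input mixes all cell types of the cerebellum. In such bulk samples, fewer cells of a type and less RNA per cell cannot be told apart.

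Of the 50 genes, 16 share exon bases with a gene on the opposite strand (Gna12, Gna13, Gnal, Gnao1, Gnas, Gnb5, Gng2, Gng3, Gng12, Gng13, Rgs6, Rgs8, Rgs11, Rgs12, Rgs16 and Rgs20), and since no strand setting is stated, reads of such pairs cannot be told apart. The libraries held 18799609 to 54229183 counts. Astn2, the targeted gene, had 24 to 64 counts in the 7 KO libraries and 1707 to 4653 in the 7 WT libraries. All 8 Purkinje cell marker genes examined were higher in TRAP than in input in both genotypes. Their summed level was 68211 to 76714 CPM in TRAP WT against 5057 to 5544 CPM in input WT. Pcp2, whose promoter drives the tag, is among these 8 genes. CPM is the count per library total scaled with TMM factors, which are meant to correct for RNA composition. Markers of other cells were lower in TRAP but not absent: the 8 granule cell markers summed to 646 to 1054 CPM in TRAP WT against 4161 to 4321 CPM in input WT, and the 6 oligodendrocyte markers to 878 to 1726 CPM against 5047 to 6858 CPM. Of 8 interneuron and 8 astroglial markers, 7 each were lower in WT, and Gad1 and Hopx were higher; of 3 unipolar brush cell markers 2 were lower; of 5 choroid plexus markers 1 (Clic6) was higher in both genotypes, and the other 4 were lower in KO and did not pass in WT (edgeR). No marker list was at 0 in TRAP, and the part of RNA from other cells in the TRAP values below was not tested. The labels do not say that each library came from a separate animal, so p-values measure the spread between these libraries, which may be technical.

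Some libraries stood apart. The summed choroid plexus markers were at 398 and 281 CPM in input WT replicates 2 and 3 and at 1163 CPM in input KO replicate 2, against 10.4 to 15.4 CPM in the remaining input libraries, and Ttr, the most abundant of them, was at 96.5 and 65.8 CPM in TRAP WT replicates 2 and 3 against 1.14 to 2.11 CPM in the remaining TRAP libraries. TRAP WT replicate 3 also departed from the other TRAP WT libraries by transcript length: genes of the longest tercile (over 4285 bases) lay 0.262 higher on the log2 scale, in median, than genes of the shortest tercile (up to 2639 bases), against -0.231 in replicate 2 and -0.0422 in replicate 1. Of the 50 genes, Gna12, Gnai2, Gng13, Gng3 and Rgs17 differed there by more than 1 on the log2(CPM + 1) scale from the mean of the other TRAP WT libraries. The same held for Gna12, Gng13 and Gng3 in replicate 2 and for none of the 50 in the other 12 libraries. Calls that changed without replicate 3, or without all 5 libraries with choroid plexus RNA, are named beside the result; the latter fit was chosen after seeing the data and leaves TRAP WT with 1 library, assumed to vary like the other groups.

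**Figure D1:**
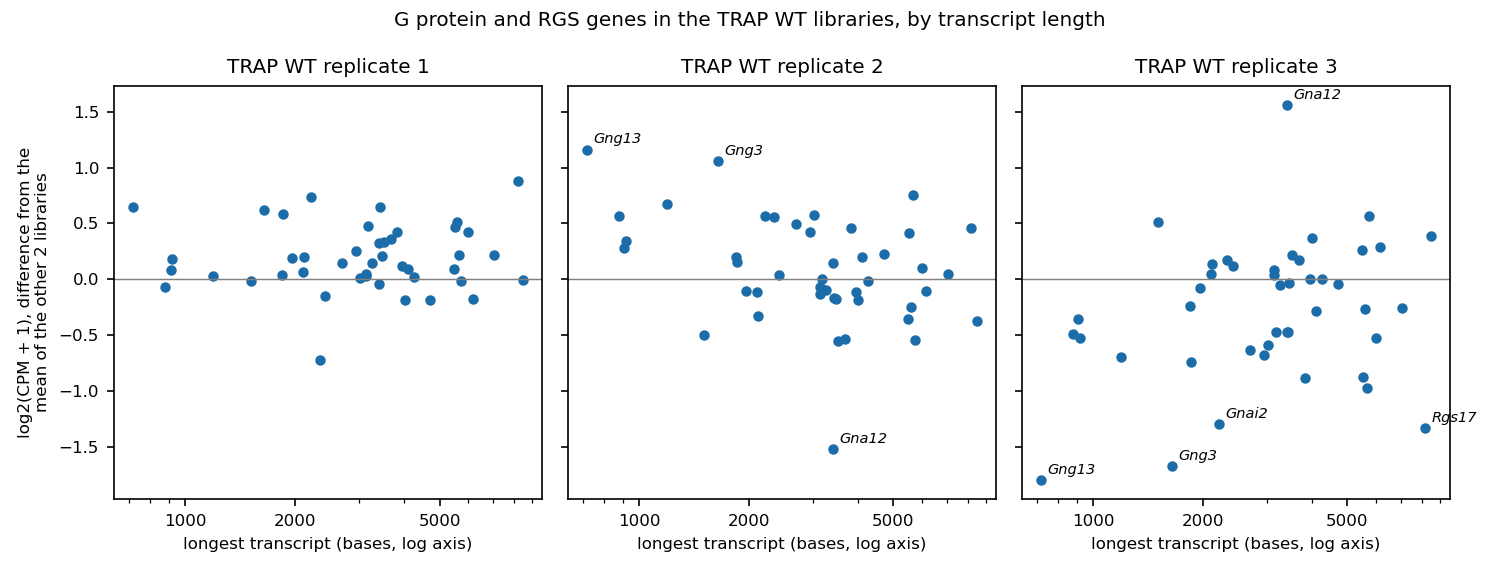
Departure of each G protein and RGS gene in a TRAP WT library from the mean of the other 2 TRAP WT libraries (log2 of CPM + 1, vertical axis), by the length of its longest transcript in bases (log axis), 1 panel per library and 1 point per gene. Names mark genes off by more than 1: 5 in replicate 3, with Gng13 lowest and Gna12 highest there, 3 in replicate 2 and none in replicate 1.

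The stretch of 250 bases upstream of the outermost RefSeq start (assembly GRCm38.p6) is printed for the 4 genes with the highest TRAP to input ratio and for Gng7 and Rgs17, which are among the 3 with the lowest; Gng12, the lowest, was left out because its window lies inside annotated exons. They are shown so that the start regions of genes with opposite enrichment can be set side by side. Each runs 5′ to 3′ on the gene's own strand, with CG dinucleotides in capitals.
Gng13, chr17:25716922-25717171, plus strand: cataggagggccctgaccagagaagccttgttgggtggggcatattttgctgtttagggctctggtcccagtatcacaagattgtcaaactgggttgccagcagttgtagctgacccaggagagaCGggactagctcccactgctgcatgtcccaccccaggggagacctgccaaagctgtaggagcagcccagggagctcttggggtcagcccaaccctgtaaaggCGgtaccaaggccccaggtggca
Rgs10, chr7:128418173-128418422, minus strand: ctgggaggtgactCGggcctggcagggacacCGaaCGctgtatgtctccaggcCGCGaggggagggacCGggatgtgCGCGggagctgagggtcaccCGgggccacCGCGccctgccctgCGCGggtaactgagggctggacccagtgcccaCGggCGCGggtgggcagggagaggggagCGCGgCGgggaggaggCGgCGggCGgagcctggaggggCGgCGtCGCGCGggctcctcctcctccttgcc
Rgs8, chr1:153652787-153653036, plus strand: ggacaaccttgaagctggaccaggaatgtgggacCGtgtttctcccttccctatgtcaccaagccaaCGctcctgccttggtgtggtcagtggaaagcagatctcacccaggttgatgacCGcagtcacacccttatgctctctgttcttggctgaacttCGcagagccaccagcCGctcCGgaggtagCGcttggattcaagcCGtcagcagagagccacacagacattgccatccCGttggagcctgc
Gng4, chr13:13783809-13784058, plus strand: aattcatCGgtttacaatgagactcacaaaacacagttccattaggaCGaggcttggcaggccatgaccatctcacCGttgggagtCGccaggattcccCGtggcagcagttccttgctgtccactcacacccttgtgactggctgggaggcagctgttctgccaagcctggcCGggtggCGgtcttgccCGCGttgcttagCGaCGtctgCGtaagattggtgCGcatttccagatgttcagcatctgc
Gng7, chr10:81014926-81015175, minus strand: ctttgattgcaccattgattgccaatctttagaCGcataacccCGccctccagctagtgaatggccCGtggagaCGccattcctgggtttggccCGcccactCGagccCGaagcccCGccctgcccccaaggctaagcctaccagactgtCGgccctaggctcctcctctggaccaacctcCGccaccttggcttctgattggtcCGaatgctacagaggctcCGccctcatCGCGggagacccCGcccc
Rgs17, chr10:5922401-5922650, minus strand: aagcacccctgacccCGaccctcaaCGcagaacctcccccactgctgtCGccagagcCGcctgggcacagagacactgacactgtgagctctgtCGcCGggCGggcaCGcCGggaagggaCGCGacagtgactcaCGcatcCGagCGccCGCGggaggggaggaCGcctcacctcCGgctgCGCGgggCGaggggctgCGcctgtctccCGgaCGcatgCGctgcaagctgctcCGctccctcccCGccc

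The windows of Rgs10 and Rgs17 each hold 27 CG dinucleotides although their genes differ in the direction of enrichment, whereas the Gng13 window holds 2, that of Rgs8 9, that of Gng4 13 and that of Gng7 15. A second annotated start of Gng13, chr17:25717278-25717527 on the plus strand, has 25. The median over 51 windows of 38 of the 50 genes that RefSeq's promoter table matched was 15, against 6 over all 32851 windows. Searched on both strands, AGGTCA (the half-site of RORα and other nuclear receptors) was in 4 of the 51 windows of these genes (7.8%) and in 4607 of all windows, TATAAA in 15.7% against 12.4%, CACGTG in 7.8% against 6.0%, and TGACGTCA in 0 of 51 against 1.5%. None of the 6 printed windows holds any of these letters in a row; one of the inner Rgs8 starts has 1 AGGTCA. A match describes letters only, and no match says nothing of whether a factor binds.

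Of the 50 genes, 44 had enough counts for a test of TRAP against input. In WT, 18 of these were higher in TRAP and 20 lower, where 37.0% of all 16042 genes tested were higher and 38.5% lower (edgeR's quasi-likelihood test, Benjamini-Hochberg adjusted p under 0.05). In KO, 18 were higher and 19 lower, against 36.3% and 39.6% of all genes. Gnb3, Gna15 and Rgs22 had too few counts among the TRAP libraries alone and entered through input, where they were higher, so their lower calls carry no weight; over the 41 others the counts were 18 higher and 19 lower in WT and 18 and 17 in KO. Without the libraries with choroid plexus RNA, 18 of the 44 were higher and 16 lower in WT, and 18 and 20 in KO. The shares among the 44, 40.9% higher and 45.5% lower in WT, were near that background. Their median log2 ratio was -0.61 in WT and -0.29 in KO, against -0.09 and -0.11 over all genes. With library totals in place of TMM, the median of all genes moved to -0.91 in WT and -0.85 in KO. Of the 44 genes, 8 were then higher and 26 lower in WT, and 9 higher and 27 lower in KO. The share of all genes called under that scaling is not given, nor is that without the libraries with choroid plexus RNA. Those counts therefore only describe the genes listed here. Gnal, Gnaq, Gnaz, Gnb1, Gnb5, Rgs19, Rgs3 and Rgs7bp were not higher in either genotype under that scaling, nor was Rgs4 in WT. Directions below are relative to TMM unless stated. In the overlap of the genotypes, 17 genes were higher in both, 18 lower in both, 4 (Gnb3, Gng3, Rgs16 and Rgs2) passed in neither, and 0 passed in opposite directions. The 18 include Gna15, whose lower calls carry no weight. The same overlap was not counted over all genes, so these counts only describe the genes listed here. The 2 comparisons share no library, but they share 1 estimate of the spread.

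**Figure D2:**
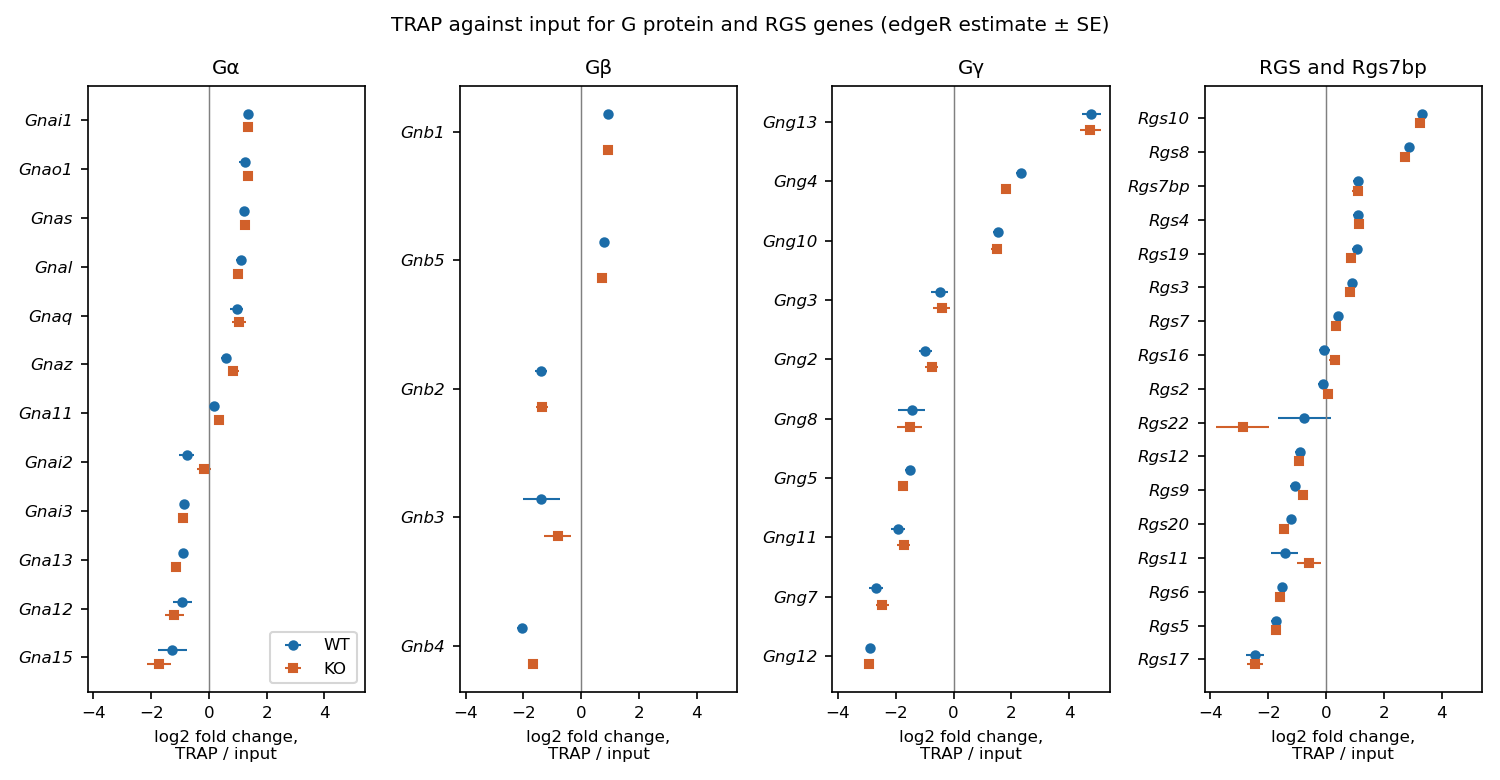
Log2 ratio of TRAP to input (edgeR estimate ± SE) for the 44 genes tested, by family, in WT (circles) and KO (squares). Each family has members on both sides of 0, from Gng12 at -2.89 to Gng13 at 4.77 in WT, and the 2 genotypes lie close together for most genes; Rgs22 is the widest exception.

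Of the γ subunit genes, whose products tether the βγ pair to the membrane through a lipid tail, 3 of 10 were higher in TRAP and 6 lower in each genotype. Gng13 had the highest ratio of all the genes described. Gng13 stood at 4391, 5576 and 1418 CPM in the TRAP WT libraries and at 4045, 3601, 3842 and 3203 CPM in TRAP KO, against 153, 149.8, 129 and 122 CPM in input WT and 131, 149 and 145 CPM in input KO. Every TRAP library lay above every input library with a wide gap. The ratio was 27.2-fold in WT (log2 4.77 ± 0.34 SE, edgeR adjusted p = 2.17e-08) and 26.6-fold in KO (log2 4.73 ± 0.37). TRAP WT replicate 3 was the low library, and without it the WT ratio was 35.4-fold (log2 5.15). An opposite-strand neighbour, Chtf18, shares exon sequence with Gng13; it had a mean of 2.96 CPM in input WT and 13.97 CPM in TRAP WT, small beside Gng13.

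Gng4, a γ subunit of neurons, came next in the family. In input, Gng4 read 7.12, 7.10, 5.61 and 6.53 CPM in WT and 8.59, 7.05 and 8.49 CPM in KO, and in TRAP 40.9, 32.7 and 26.1 CPM in WT and 31.2, 26.6, 25.9 and 25.2 CPM in KO. TRAP and input did not overlap in either genotype, with a ratio of 4.98-fold in WT (log2 2.32 ± 0.14) and 3.48-fold in KO (log2 1.80 ± 0.15). Gng10, a broadly expressed γ subunit, was the third. Gng10 was measured in TRAP at 48.4, 65.8 and 34.3 CPM in WT and 63.9, 46.1, 44.7 and 53.6 CPM in KO, and in input at 18.3, 17.5, 17.0 and 15.8 CPM in WT and 18.9, 18.3 and 19.4 CPM in KO. Its ratio was 2.89-fold in WT and 2.82-fold in KO, again with no overlap.

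At the other end, Gng12 was the most depleted of all 44 genes in WT. For Gng12, input held 93.0, 87.8, 83.7 and 83.0 CPM in WT and 88.3, 82.7 and 101 CPM in KO, while TRAP held 11.8, 11.5 and 11.6 CPM in WT and 11.1, 12.4, 11.6 and 11.5 CPM in KO. The 7 TRAP values differed by little and all were far under the lowest input value, with TRAP at 0.135 of input in WT (log2 -2.89 ± 0.11, edgeR adjusted p = 9.94e-11) and 0.130 in KO. Gng7, the γ subunit known to pair with Gαolf in striatum, was second. Gng7 stood at 5.10, 3.19 and 2.64 CPM in the TRAP WT libraries and at 3.55, 3.57, 6.49 and 3.48 CPM in TRAP KO, against 24.0, 21.8, 24.3 and 22.7 CPM in input WT and 24.1, 23.2 and 23.6 CPM in input KO. No TRAP value reached the input range, and TRAP was at 0.155 of input in WT (log2 -2.69 ± 0.25) and 0.181 in KO. Gng11 followed. In input, Gng11 read 12.2, 13.1, 14.8 and 12.7 CPM in WT and 11.9, 12.3 and 10.6 CPM in KO, and in TRAP 3.88, 4.25 and 2.51 CPM in WT and 3.78, 3.89, 4.21 and 1.85 CPM in KO. It stood at 0.264 of input in WT (log2 -1.92 ± 0.24) and 0.304 in KO, without overlap. The 5 endothelial markers summed to 7.82 to 8.90 CPM in TRAP WT against 18.6 to 25.9 CPM in input WT; whether they bear on Gng11 was not tested. Gng5, a widely expressed γ subunit, was the fourth. Gng5 was measured in TRAP at 3.40, 3.81 and 4.00 CPM in WT and 3.63, 3.01, 3.98 and 3.26 CPM in KO, and in input at 10.8, 11.5, 11.7 and 9.33 CPM in WT and 10.6, 12.95 and 11.3 CPM in KO. Its TRAP level was 0.349 of input in WT (log2 -1.52 ± 0.15) and 0.299 in KO, the groups again being separate.

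Of the remaining γ genes, Gng2 (log2 -0.98 ± 0.23 in WT) and Gng8 (-1.45 ± 0.46) were also lower; the KO call of Gng2 was lost without input KO replicate 3 (edgeR adjusted p = 0.0612). Gng8 was at most 1.37 CPM in every library, and its WT call was lost without TRAP WT replicate 3 (edgeR adjusted p = 0.0598) and without the libraries with choroid plexus RNA (0.2602). Gng3, a neuronal γ subunit, did not pass. For Gng3, input held 206, 202, 187 and 168 CPM in WT and 197, 201 and 215 CPM in KO, while TRAP held 161, 197 and 55.2 CPM in WT and 172, 139, 161 and 128 CPM in KO. TRAP and input overlapped in WT, where TRAP WT replicate 3 was lowest, and the log2 ratio was -0.48 ± 0.29 in WT and -0.41 ± 0.29 in KO. In KO the groups were separate, and Gng3 passed there once TRAP WT replicate 3 was left out of the shared fit (edgeR adjusted p = 0.00319), and also without the 5 libraries with choroid plexus RNA. In WT it was -0.11 without replicate 3, and it passed without replicate 2 (edgeR adjusted p = 0.00684), with a replicate block (0.0470), under a minimum mean count of 50 (0.0471) and with library totals (0.00128). Its opposite-strand partner Bscl2 had 46.9 CPM in input WT and 16.0 CPM in TRAP WT, so reads of Bscl2 counted for Gng3, if any, cannot be told apart here.

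**Figure D3:**
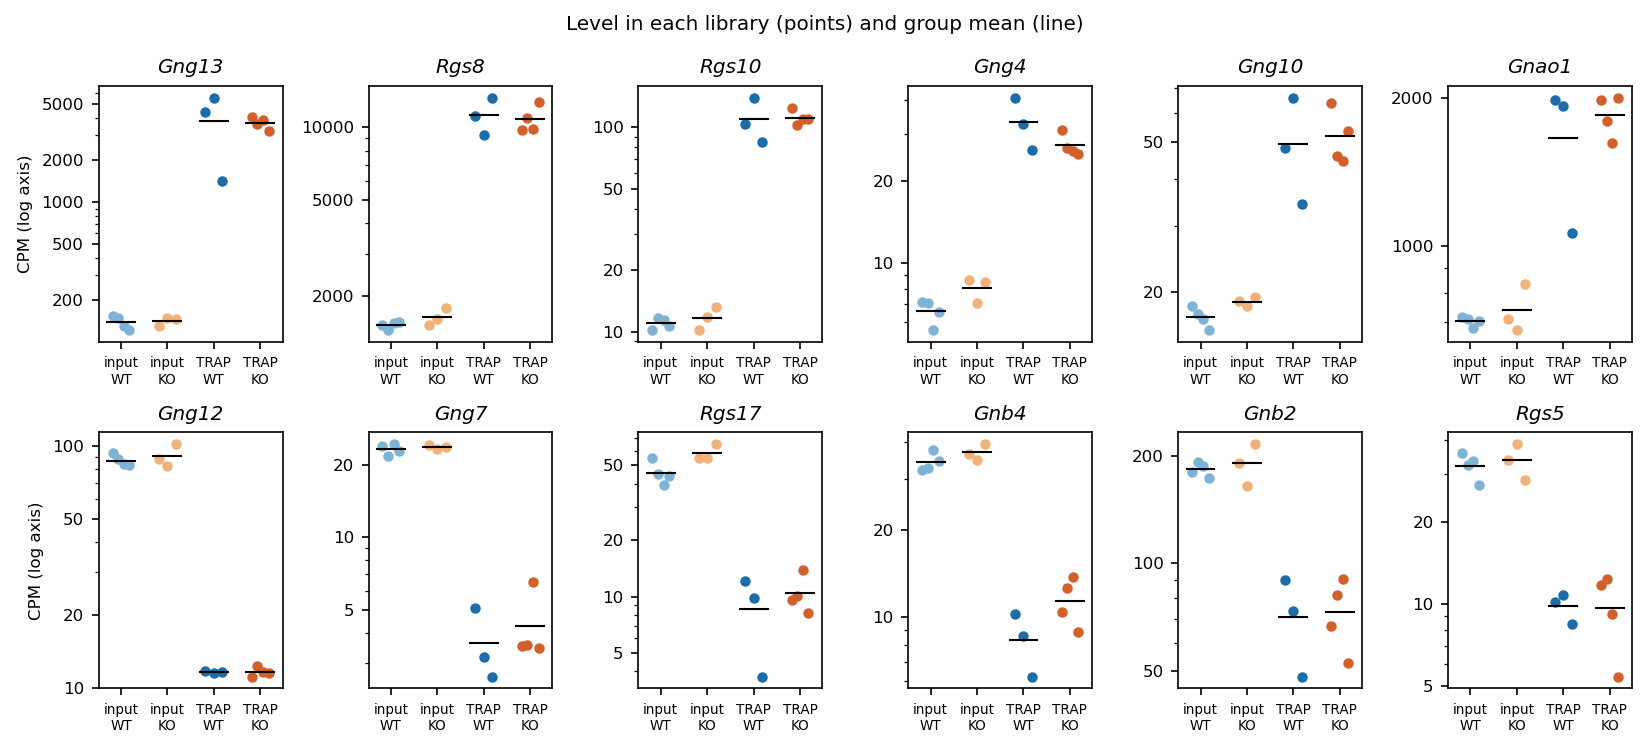
CPM (log axis) of 12 of the genes in each of the 14 libraries, with the group mean as a line; upper row, genes higher in TRAP, lower row, genes lower in TRAP. TRAP and input separate in every panel in both genotypes. In TRAP WT, replicate 3 (the right-hand point) is lowest in every panel but those of Rgs8, where it is highest, and Gng12.

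Among 17 RGS-set genes tested, 7 were higher in TRAP and 7 lower in WT, and 6 and 7 in KO. RGS proteins fall into groups by sequence outside the shared RGS domain. Rgs10, a small protein of the R12 group that acts on Gi-type α subunits, had the highest ratio. Rgs10 stood at 104, 139.9 and 85.3 CPM in the TRAP WT libraries and at 124, 103, 109.8 and 109.9 CPM in TRAP KO, against 10.2, 11.6, 11.4 and 10.7 CPM in input WT and 10.1, 11.7 and 13.3 CPM in input KO. The lowest TRAP library, at 85.3 CPM, lay far above the highest input library, at 13.3 CPM; the ratio was 10.1-fold in WT (log2 3.34 ± 0.15, edgeR adjusted p = 4.60e-10) and 9.57-fold in KO. Rgs10 is also known from microglia, whose 6 markers were all lower in TRAP in both genotypes. They summed to 6.06 to 6.67 CPM in TRAP WT against 19.6 to 33.0 CPM in input WT. Whether these markers bear on Rgs10 was not tested.

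Rgs8, an R4-group protein that acts on Gi and Gq pathways and is concentrated in Purkinje cells, was second by ratio and the most abundant of the 50 genes in CPM. In input, Rgs8 read 1525, 1450.3, 1558 and 1566 CPM in WT and 1521, 1617 and 1784 CPM in KO, and in TRAP 11063, 9305 and 13226 CPM in WT and 9755, 10927, 9832 and 12692 CPM in KO. TRAP WT replicate 3 was its highest library, the reverse of Gng13. TRAP exceeded input 7.41-fold in WT (log2 2.89 ± 0.13, edgeR adjusted p = 4.51e-10) and 6.61-fold in KO (log2 2.72 ± 0.14), and by 2.73 on the log2 scale in WT without that library. Rgs7bp, the membrane anchor of R7-group proteins, was higher too. Rgs7bp was measured in TRAP at 712, 658 and 574 CPM in WT and 704, 694, 571 and 1077 CPM in KO, and in input at 315, 296, 286 and 309 CPM in WT and 342, 324 and 409 CPM in KO. The ratio was 2.17-fold in WT and 2.14-fold in KO, with the groups apart. Rgs4, an R4-group protein of neurons, completed the top 4. For Rgs4, input held 11.4, 9.97, 13.5 and 13.7 CPM in WT and 11.9, 12.8 and 13.1 CPM in KO, while TRAP held 28.7, 31.1 and 18.3 CPM in WT and 31.4, 26.9, 24.3 and 27.6 CPM in KO. It was 2.13-fold higher in WT and 2.23-fold in KO.

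Rgs19 (log2 1.07 ± 0.16 in WT), of the RZ group, and Rgs3 (0.90 ± 0.10), of the R4 group, were also higher in both genotypes. The R7 group, whose members work as partners of the β subunit Gnb5, was divided: Rgs6 and Rgs9 were lower in both genotypes, and Rgs7 and Rgs11 passed in WT alone. Rgs7 stood at 107, 70.5 and 98.2 CPM in the TRAP WT libraries and at 76.4, 89.5, 91.4 and 109.8 CPM in TRAP KO, against 72.5, 70.6, 68.7 and 65.3 CPM in input WT and 72.6, 69.8 and 77.7 CPM in input KO. TRAP and input overlapped for Rgs7 in each genotype; its log2 ratio was 0.42 ± 0.15 in WT (edgeR adjusted p = 0.0184) and 0.34 ± 0.15 in KO (adjusted p = 0.0503), and with library totals it turned to -0.40 and -0.39. Its WT call was lost without TRAP WT replicate 3 or replicate 1 (edgeR adjusted p = 0.0608 and 0.134) and under a minimum mean count of 50 (0.213). A KO call appeared without TRAP KO replicate 1 or any 1 TRAP WT library (edgeR adjusted p = 0.0176 to 0.0441), with no sex covariate (0.0380) and with DESeq2 (0.0499). In input, Rgs11 read 1.30, 1.49, 1.46 and 1.43 CPM in WT and 1.08, 1.48 and 1.01 CPM in KO, and in TRAP 0.612, 0.895 and 0.124 CPM in WT and 0.702, 0.490, 1.17 and 0.924 CPM in KO. Rgs11 separated in WT and overlapped in KO, with log2 -1.43 ± 0.46 in WT and -0.58 ± 0.41 in KO; without TRAP WT replicate 2 the WT value was -2.15, and without replicate 3 it was -0.87 and the KO value passed as well (edgeR adjusted p = 0.0418). The WT call of Rgs11 was lost without the libraries with choroid plexus RNA (log2 -0.99, edgeR adjusted p = 0.163). Arhgdig, which shares exon bases with Rgs11 on the opposite strand, had 5.37 CPM in input WT and 12.8 CPM in TRAP WT, more than Rgs11 itself, so the counts of Rgs11 are uncertain. The difference between the genotypes in this ratio was not past the threshold for either gene (interaction log2 -0.08 ± 0.21 for Rgs7 and 0.85 ± 0.62 for Rgs11).

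The most depleted RGS gene was Rgs17, an RZ-group protein that acts on Gz and Gi-type α subunits. Rgs17 was measured in TRAP at 12.2, 9.85 and 3.75 CPM in WT and 9.63, 10.1, 13.9 and 8.23 CPM in KO, and in input at 54.5, 45.3, 39.4 and 43.9 CPM in WT and 55.0, 54.6 and 64.9 CPM in KO. The libraries separated fully; TRAP was at 0.183 of input in WT (log2 -2.45 ± 0.30) and 0.184 in KO. Rgs5, known as a marker of pericytes, was next. For Rgs5, input held 35.7, 32.2, 33.3 and 27.2 CPM in WT and 33.6, 38.5 and 28.5 CPM in KO, while TRAP held 10.2, 10.8 and 8.41 CPM in WT and 11.7, 12.3, 9.18 and 5.41 CPM in KO. TRAP stood at 0.301 of input in WT (log2 -1.73 ± 0.19) and 0.299 in KO. The 5 markers of mural cells summed to 6.996 to 11.5 CPM in TRAP WT and 18.1 to 26.4 CPM in input WT. Whether these markers bear on Rgs5 was not tested. Rgs6 belongs to the R7 group. Rgs6 stood at 11.9, 8.06 and 7.996 CPM in the TRAP WT libraries and at 10.4, 11.6, 11.4 and 8.23 CPM in TRAP KO, against 28.1, 26.997, 24.5 and 25.6 CPM in input WT and 32.5, 27.5 and 36.1 CPM in input KO. With no overlap, it was at 0.350 of input in WT and 0.331 in KO. Rgs20 of the RZ group (log2 -1.22 ± 0.15 in WT), Rgs9, known from striatum (-1.07 ± 0.16), and Rgs12 of the R12 group (-0.91 ± 0.18) were also lower; Atp6v1h, on the opposite strand of Rgs20, had 71.1 CPM in input WT and 90.2 CPM in TRAP WT.

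Rgs2 and Rgs16, R4-group genes that act on Gq and Gi pathways, passed in neither genotype (log2 -0.09 ± 0.17 and -0.06 ± 0.20 in WT). Rgs22 passed in KO alone, on few counts, and entered the test through input, so its call is a description. In input, Rgs22 read 0.145, 0.143, 0.197 and 0.334 CPM in WT and 0.528, 0.312 and 0.207 CPM in KO, and in TRAP 0, 0 and 0.288 CPM in WT and 0, 0.105, 0.0585 and 0 CPM in KO. These are 0, 0 and 7 counts in TRAP WT and 0, 3, 1 and 0 in TRAP KO, against 5 to 25 counts in the input libraries. The fitted log2 ratio was -0.74 ± 0.90 in WT and -2.88 ± 0.91 in KO; without TRAP WT replicate 3, which held all 7 WT counts, the WT value was -6.02 and passed (edgeR adjusted p = 0.0184), and without TRAP KO replicate 2 the KO value was -4.22. A further 5 RGS genes had too few counts for a test. Rgs18 had 1 to 18 counts in each input library and 0 in all 7 TRAP libraries, Rgs1 and Rgs13 had at most 2 counts in a library, and Rgs14 at most 10. Rgs21 had 0 counts in every library, for which 3 counts set the upper limit (counting error only). Scaled by library totals without TMM factors, that limit was 0.0553 to 0.160 CPM by library. It is thus not on the scale of the other CPM values.

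Of 12 α subunit genes tested, 6 were higher in TRAP and 5 lower in WT, and 7 and 4 in KO. Gnai1, of the Gi type that lowers cyclic AMP, had the highest ratio. Gnai1 stood at 613, 563 and 622 CPM in the TRAP WT libraries and at 569, 591, 516 and 746 CPM in TRAP KO, against 235, 234, 249.2 and 236 CPM in input WT and 234, 224 and 254 CPM in input KO. TRAP and input did not overlap, with a ratio of 2.54-fold in WT (log2 1.34 ± 0.12) and 2.57-fold in KO. Gnao1 encodes Gαo, an abundant neuronal α subunit. In input, Gnao1 read 716, 709, 679.7 and 704 CPM in WT and 708, 674 and 835 CPM in KO, and in TRAP 1976, 1927 and 1061 CPM in WT and 1977, 1794, 1622 and 2002 CPM in KO. TRAP WT replicate 3 was lowest of the TRAP libraries but still above every input library; the ratio was 2.35-fold in WT and 2.55-fold in KO. Gnas encodes Gαs, which stimulates adenylyl cyclase. Gnas was measured in TRAP at 2887, 2591 and 2743 CPM in WT and 2776, 2799, 2818 and 2858 CPM in KO, and in input at 1206, 1215, 1189 and 1138 CPM in WT and 1199, 1157 and 1243 CPM in KO. The 7 TRAP values were within a narrow range, 2.32-fold above input in WT (log2 1.21 ± 0.08, edgeR adjusted p = 1.82e-08) and 2.38-fold in KO. Gnas is a complex locus with an opposite-strand transcript, Nespas, and the gene count does not separate its transcripts. Gnal encodes Gαolf, the Gs-type subunit of olfactory and striatal neurons. For Gnal, input held 182, 182, 166 and 177 CPM in WT and 185, 189.5 and 178 CPM in KO, while TRAP held 368, 288 and 481 CPM in WT and 325, 362, 327 and 438 CPM in KO. It was 2.16-fold higher in TRAP in WT and 1.99-fold in KO.

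Gnaq, whose α subunit activates phospholipase Cβ, was likewise higher. Gnaq stood at 474, 609 and 273 CPM in the TRAP WT libraries and at 619, 479, 431 and 718 CPM in TRAP KO, against 233, 236, 228 and 238 CPM in input WT and 254, 239.9 and 332 CPM in input KO. The ratio was 1.95-fold in WT (log2 0.97 ± 0.23) and 2.05-fold in KO (1.04 ± 0.24). Gna11, its close relative with the same effectors, was near input. In input, Gna11 read 113, 110.3, 108 and 109.6 CPM in WT and 112, 104 and 124 CPM in KO, and in TRAP 144, 132 and 99.1 CPM in WT and 132, 146, 137 and 163 CPM in KO. Groups overlapped in WT through TRAP WT replicate 3 and were separate in KO, with log2 0.18 ± 0.13 in WT (edgeR adjusted p = 0.207) and 0.37 ± 0.13 in KO (adjusted p = 0.0188). Without that library Gna11 passed in WT as well (log2 0.31, edgeR adjusted p = 0.0105), and with library totals it turned to -0.64 in WT and -0.36 in KO. In KO its call was lost without input KO replicate 1, input KO replicate 2 or TRAP KO replicate 2 (edgeR adjusted p = 0.0536 to 0.0755), with a replicate block (0.0658) and under a minimum mean count of 50 (0.206). Gnaz, the Gz subunit, was 1.51-fold higher in WT and 1.80-fold in KO, and in WT its log2 ratio turned to -0.22 with library totals and its call was lost without TRAP WT replicate 1 (edgeR adjusted p = 0.0573) and under a minimum mean count of 50 (0.0588).

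The α genes lower in TRAP were of the G12/13 type, the remaining Gi genes, and Gna15. Gna15, an α subunit of blood cells, was at the edge of detection. Gna15 was measured in TRAP at 0.272, 0.112 and 0.124 CPM in WT and 0.0390, 0.245, 0.292 and 0.220 CPM in KO, and in input at 0.405, 0.287, 0.453 and 0.425 CPM in WT and 0.760, 0.592 and 0.622 CPM in KO. With 1 to 7 counts in each TRAP library, it entered the test through input alone. The fitted TRAP level was 0.418 of input in WT (log2 -1.26 ± 0.52, edgeR adjusted p = 0.0395) and 0.304 in KO, which is given as a description; the WT call was lost with a replicate block and without TRAP WT replicate 2 or 3, input WT replicate 1, 3 or 4, or input KO replicate 1 or 3 (edgeR adjusted p = 0.0521 to 0.127 over these), and without the libraries with choroid plexus RNA (0.626). Gna12 came next in WT. For Gna12, input held 82.0, 72.5, 85.2 and 81.3 CPM in WT and 79.4, 70.6 and 85.1 CPM in KO, while TRAP held 34.7, 17.0 and 73.9 CPM in WT and 24.3, 39.1, 34.2 and 39.7 CPM in KO. TRAP WT replicate 3 reached into the input range while all other TRAP libraries lay under it. The log2 ratio of Gna12 was -0.92 ± 0.34 in WT and -1.20 ± 0.33 in KO, and -1.68 in WT without that library. Its WT call was lost without input WT replicate 1 or TRAP WT replicate 1 (edgeR adjusted p = 0.0612 and 0.0839). The opposite-strand neighbour Amz1 had a mean of 4.96 CPM in input WT and 42.9 CPM in TRAP WT, so the TRAP counts of Gna12 are uncertain. Gna13 is the other gene of this type. Gna13 stood at 31.8, 33.0 and 39.8 CPM in the TRAP WT libraries and at 33.8, 31.7, 31.5 and 29.1 CPM in TRAP KO, against 69.1, 67.2, 60.0 and 64.5 CPM in input WT and 65.8, 68.7 and 77.0 CPM in input KO. It separated fully, at 0.538 of input in WT (log2 -0.89 ± 0.11) and 0.452 in KO. Gnai3 is a broadly expressed Gi gene. In input, Gnai3 read 45.0, 45.1, 44.8 and 46.0 CPM in WT and 47.0, 48.7 and 53.9 CPM in KO, and in TRAP 26.5, 23.5 and 24.1 CPM in WT and 26.8, 28.8, 26.3 and 23.6 CPM in KO. TRAP stood at 0.546 of input in WT and 0.538 in KO.

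Gnai2, the Gi gene of many non-neuronal and neuronal cells, passed in WT alone. Gnai2 was measured in TRAP at 106, 97.3 and 40.6 CPM in WT and 93.0, 105, 106 and 148 CPM in KO, and in input at 137, 137, 139 and 143 CPM in WT and 131, 117 and 139 CPM in KO. The groups were apart in WT, where replicate 3 was lowest, and overlapped in KO. Its log2 ratio was -0.77 ± 0.26 in WT (edgeR adjusted p = 0.0145) and -0.18 ± 0.25 in KO, and -0.44 in WT without TRAP WT replicate 3 and -0.31, with the call lost, without the libraries with choroid plexus RNA; the genotypes' ratios did not differ past the threshold (interaction log2 0.59 ± 0.36, edgeR adjusted p = 0.999). Gna14, the remaining Gq-type gene, had 0 to 9 counts in a library and was not tested.

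Of the 5 β subunit genes, 2 were higher and 2 lower in each genotype. Gnb1 encodes the common β subunit of brain. Gnb1 stood at 1076, 1030.3 and 1082 CPM in the TRAP WT libraries and at 1099, 1142, 1056 and 1324 CPM in TRAP KO, against 571, 573, 568 and 562 CPM in input WT and 592, 587 and 672 CPM in input KO. TRAP lay above input in every library, 1.88-fold in WT (log2 0.91 ± 0.10) and 1.88-fold in KO. Gnb5 encodes the divergent β subunit that pairs with R7-group RGS proteins. In input, Gnb5 read 154, 159, 164 and 155 CPM in WT and 166, 156 and 179 CPM in KO, and in TRAP 279, 257 and 276 CPM in WT and 268, 271, 271 and 288 CPM in KO. It was 1.73-fold higher in WT and 1.66-fold in KO with full separation under TMM, and at log2 -0.032 in WT and -0.0038 in KO with library totals. Gnb4 was the lowest of the family. Gnb4 was measured in TRAP at 10.2, 8.62 and 6.22 CPM in WT and 10.4, 12.6, 13.7 and 8.84 CPM in KO, and in input at 32.1, 32.6, 37.5 and 34.4 CPM in WT and 36.5, 34.9 and 39.5 CPM in KO. TRAP was at 0.243 of input in WT (log2 -2.04 ± 0.18) and 0.313 in KO, with no overlap. Gnb2, a β subunit found in most tissues, was lower as well. For Gnb2, input held 181, 192, 187 and 174 CPM in WT and 191, 165 and 216 CPM in KO, while TRAP held 90.1, 73.6 and 48.2 CPM in WT and 66.9, 81.7, 90.6 and 52.7 CPM in KO. All TRAP libraries lay under all input libraries, at 0.383 of input in WT (log2 -1.38 ± 0.21) and 0.390 in KO. Gnb3, known from cone photoreceptors, was at most 0.518 CPM and passed in neither genotype (log2 -1.39 ± 0.64 in WT); the WT value was -2.48 without TRAP WT replicate 2 and -0.68 without replicate 3, and it passed without the former or without input WT replicate 4 (edgeR adjusted p = 0.0142 and 0.0408), and in KO without TRAP WT replicate 3 (edgeR adjusted p = 0.0423).

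Levels were then compared between genes as CPM per kilobase of the longest annotated transcript, and each gene's share of its family was taken. In the γ family, Gng13 took 48.0% ± 0.917 (SD, n = 4) of the family total in input WT and 96.7% ± 0.873 (n = 3) in TRAP WT, with 47.0% ± 1.64 and 96.7% ± 0.233 in KO. All 7 TRAP libraries lay between 95.7% and 97.3%, TRAP WT replicate 3 included. Gng3 held 29.0% of the family in input WT and 1.57% in TRAP WT. Per kilobase, Gng13 had 5278 CPM in TRAP WT, Gng3 83.9, Gng10 41.5, Gng2 14.4 and Gng4 10.5. Gng4, second by ratio, was a minor γ gene by level (0.244% of the family in TRAP WT).

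In the RGS family (without Rgs7bp, which has no RGS domain), Rgs8 held 65.4% ± 1.25 of the per-length total in input WT and 85.5% ± 3.97 in TRAP WT, and 65.5% ± 0.788 and 85.01% ± 1.84 in KO. Rgs10 had 4.54% ± 0.324 in input WT and 8.36% ± 3.16 in TRAP WT, while Rgs7 had 6.85% and 1.62%. Gnb1 made up 50.2% ± 0.733 of the β family in input WT and 66.8% ± 1.67 in TRAP WT, Gnb5 20.8% and 25.4%, and Gnb2 27.3% and 7.48%. In the α family, Gnas led with 41.3% in input WT and 48.3% in TRAP WT, followed by Gnao1 (17.5% and 20.5%) and Gnai1 (10.5% and 13.3%). Gnai2, the fourth α gene in input WT at 8.63%, was at 2.49% in TRAP WT, behind Gnaq (5.50%) and Gnal (4.65%), and did not differ beyond the spread from Gna11 (2.52%). Shares depend on the length used. With the median transcript length, Gng13 held 35.1% in input WT and 94.4% in TRAP WT, and Rgs8 90.8% and 97.1%.

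**Figure D4:**
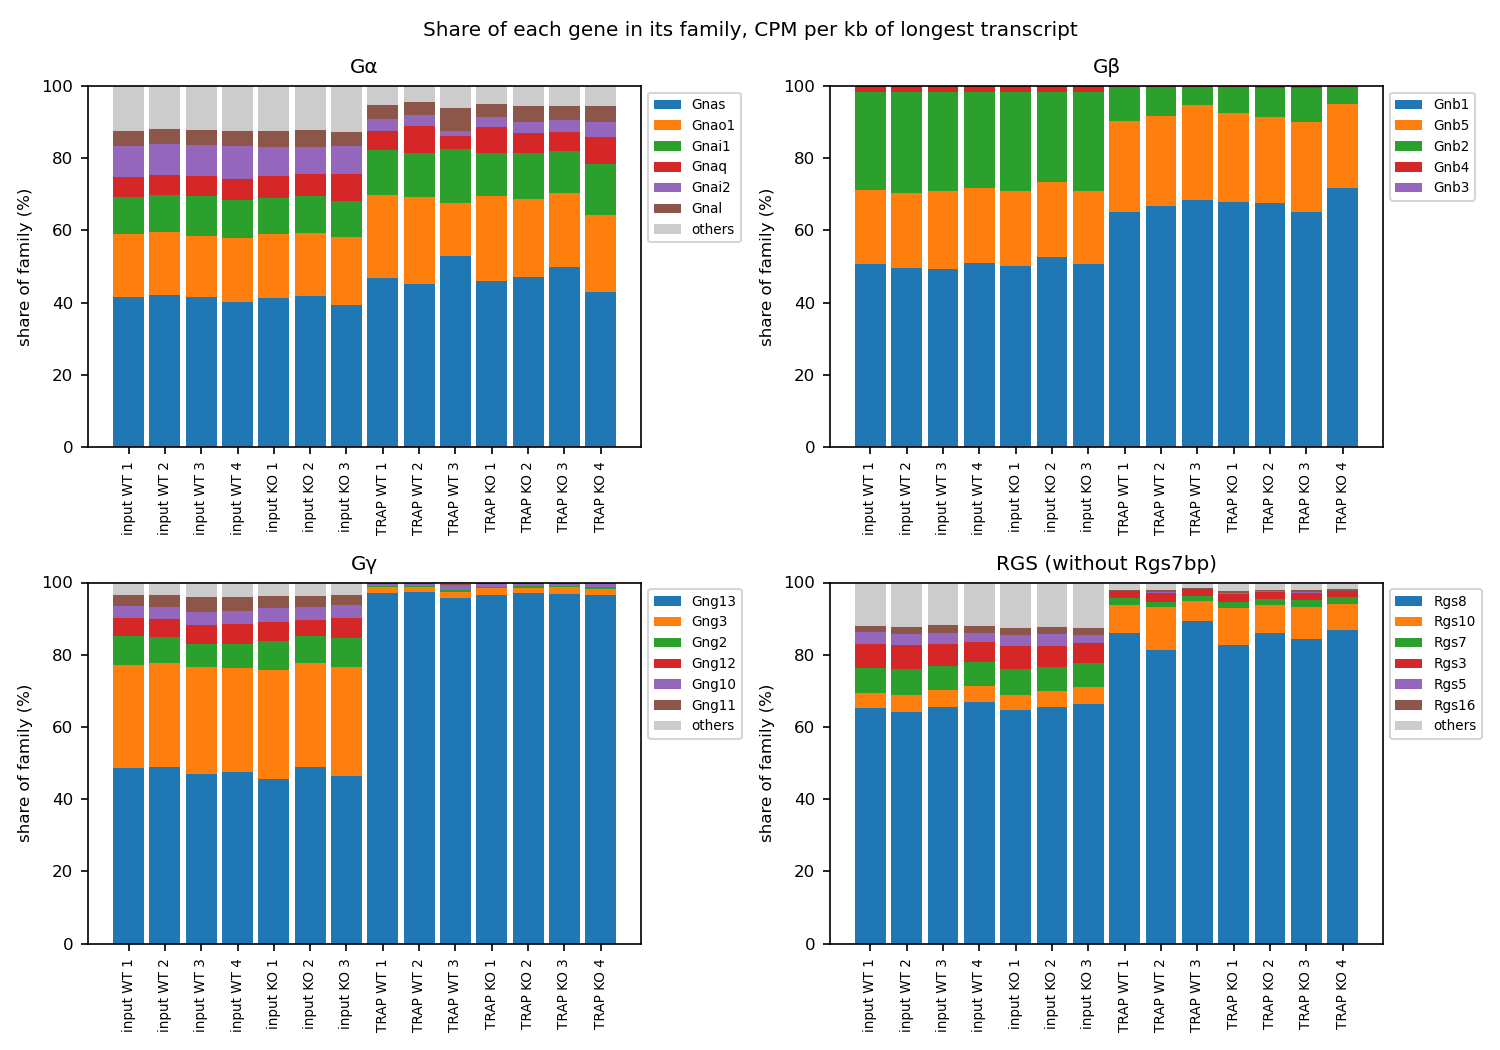
Share of each gene in its family's summed CPM per kilobase (percent, stacked to 100) in each of the 14 libraries, for the 4 families. Gng13 fills 95.7% to 97.3% of the γ bar in every TRAP library, Rgs8 81.3% to 89.2% of the RGS bar, and in the β panel Gnb2 shrinks from input to TRAP in both genotypes.

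Genes that work upstream and downstream of G proteins were counted from lists chosen by function. Over all genes tested, 37.0% were higher in TRAP and 38.5% lower in WT, and 36.3% and 39.6% in KO. The counts of each list only describe its genes. Of 12 receptor genes, 4 were higher in TRAP and 7 lower in WT, and 4 and 8 in KO. The higher ones with the largest ratios were F2r, a thrombin receptor (log2 2.73 ± 0.75 in WT), and the GABA-B receptor subunits Gabbr1 (2.38 ± 0.18) and Gabbr2 (1.97 ± 0.38). The lowest were the lysophosphatidic acid receptor Lpar1 (-2.59 ± 0.37), the cannabinoid receptor Cnr1 (-2.56 ± 0.20) and the purine receptor P2ry1 (-2.54 ± 0.27). Of 8 genes of the Gq branch, 4 were higher in each genotype, among them in WT phospholipase Plcb3 (2.68 ± 0.13) and the IP3 receptor Itpr1 (2.28 ± 0.27). Itpr1 also stands among the Purkinje markers above. None of the 8 was lower in WT, and Plcb1 (-0.35 ± 0.15) and Plcb2 (-1.81 ± 0.61) were lower in KO.

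All 8 adenylyl cyclase genes, which make cyclic AMP under control of Gs and Gi, were lower in TRAP in both genotypes. The lowest in WT were Adcy1 (-2.32 ± 0.21), Adcy5 (-2.14 ± 0.21) and Adcy3 (-2.07 ± 0.40). Of all genes tested, 38.5% were lower in WT and 39.6% in KO. Of the 4 genes of potassium channels opened by βγ, 3 were lower in each genotype, with Kcnj6 at -3.18 ± 0.31, Kcnj5 at -2.69 ± 0.83 and Kcnj3 at -0.71 ± 0.13 in WT, and Kcnj9 did not pass (-0.10 ± 0.19). Of 16 further regulators, 4 were higher and 8 lower in WT, and 5 and 10 in KO. Pcp2, which binds Gi and Go α subunits and whose promoter drives the transgene, was higher by 4.99 ± 0.18. The receptor kinase Grk6 was higher by 1.84 ± 0.17 and Pdcl, which helps assemble βγ pairs, by 1.70 ± 0.10. Pcp2 also stands among the Purkinje markers above. Gpsm2 (-2.84 ± 0.23), Gpsm3 (-2.71 ± 0.31) and the orphan receptor Gpr179 (-2.14 ± 0.57) were the lowest regulators.

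The study's other question, whether loss of Astn2 changes RNA in Purkinje cells, was asked of the same genes. In TRAP, 0 of 41 tested passed between KO and WT (edgeR, 0 with an unadjusted p below 0.05, and 0 with DESeq2). Of all 14145 genes, 0.00707% passed, that is 1 gene, and 212 had an unadjusted p under 0.05 (edgeR). At so low a share, 0 of 41 does not set these genes apart from the rest. Without the libraries with choroid plexus RNA, TRAP WT had 1 library, so no counts are given for TRAP or the interaction. That setting gave 0 calls in input (edgeR, 1 with an unadjusted p below 0.05). The share over all genes is not given for it. In input, 0 of 44 passed (edgeR, 7 with an unadjusted p below 0.05, and 0 with DESeq2), where 0.0188% of 15997 genes did. Of all genes, 13.7% had an unadjusted p under 0.05 in input. The interaction of genotype with fraction passed for 0 of 44 (edgeR, 1 with an unadjusted p below 0.05, and 0 with DESeq2) and for 0% of all genes. Of the receptor, effector and regulator lists, no gene passed in either genotype comparison (edgeR).

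Gng13 and Rgs8 were measured in TRAP with different precision. The KO to WT log2 difference of Gng13 in TRAP was -0.07 ± 0.39 (95% interval -0.96 to 0.82) and that of Rgs8 was -0.03 ± 0.18 (-0.45 to 0.38). In input the same differences were -0.03 ± 0.09 (-0.24 to 0.18) and 0.10 ± 0.06 (-0.04 to 0.24). Each of these intervals includes 0. They use the t distribution with the degrees of freedom of the fit and an SE derived from the test's F statistic. Without TRAP WT replicate 3 the Gng13 difference in TRAP was -0.43 ± 0.15 (-0.79 to -0.08; edgeR adjusted p = 0.94), and without the libraries with choroid plexus RNA -0.21 ± 0.21 (-0.68 to 0.27). The median SE over these genes was 0.23 in TRAP and 0.083 in input, so a change that input could show may go unseen in TRAP.

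Rgs16 had the smallest p in TRAP. Rgs16 stood at 8.30, 15.8 and 13.1 CPM in the TRAP WT libraries and at 22.6, 15.1, 15.1 and 16.8 CPM in TRAP KO, against 10.6, 12.9, 15.5 and 13.3 CPM in input WT and 12.9, 14.6 and 14.9 CPM in input KO. The TRAP groups overlapped, since TRAP WT replicate 2 reached the lowest KO libraries, and the log2 difference was 0.54 ± 0.27 (unadjusted p = 0.0806, edgeR adjusted p = 1.00), and 0.17 without TRAP WT replicate 1. In input the smallest p belonged to Gnaq, whose values are given above. The KO mean followed replicate 3 at 332 CPM, and all 3 KO libraries exceeded all 4 WT libraries. The log2 difference was 0.27 ± 0.09 (unadjusted p = 0.0121, edgeR adjusted p = 0.254, the lowest over the alternatives being 0.088), and 0.075 without input KO replicate 3 and 0.46 without input WT replicate 1. The others at an unadjusted p under 0.05 in input were Rgs7bp (log2 0.25 ± 0.08), Rgs6 (0.27 ± 0.10), Rgs17 (0.29 ± 0.11), Gnai3 (0.14 ± 0.06), Gna15 (0.66 ± 0.28) and Rgs2 (0.20 ± 0.08), named after their values were seen. Gng4 was the 1 gene of 44 with an unadjusted p under 0.05 for the interaction, where 2.68% of all genes had one. Its TRAP to input ratio was different in KO by -0.52 ± 0.20 on the log2 scale (unadjusted p = 0.0221, edgeR adjusted p = 0.999), with TRAP lower (log2 -0.32 ± 0.16) and input higher (0.25 ± 0.13) in KO. The value ranged from -0.65 to -0.36 as single libraries were left out, was -0.83 without the libraries with choroid plexus RNA, and passed in no setting tried.

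**Figure D5:**
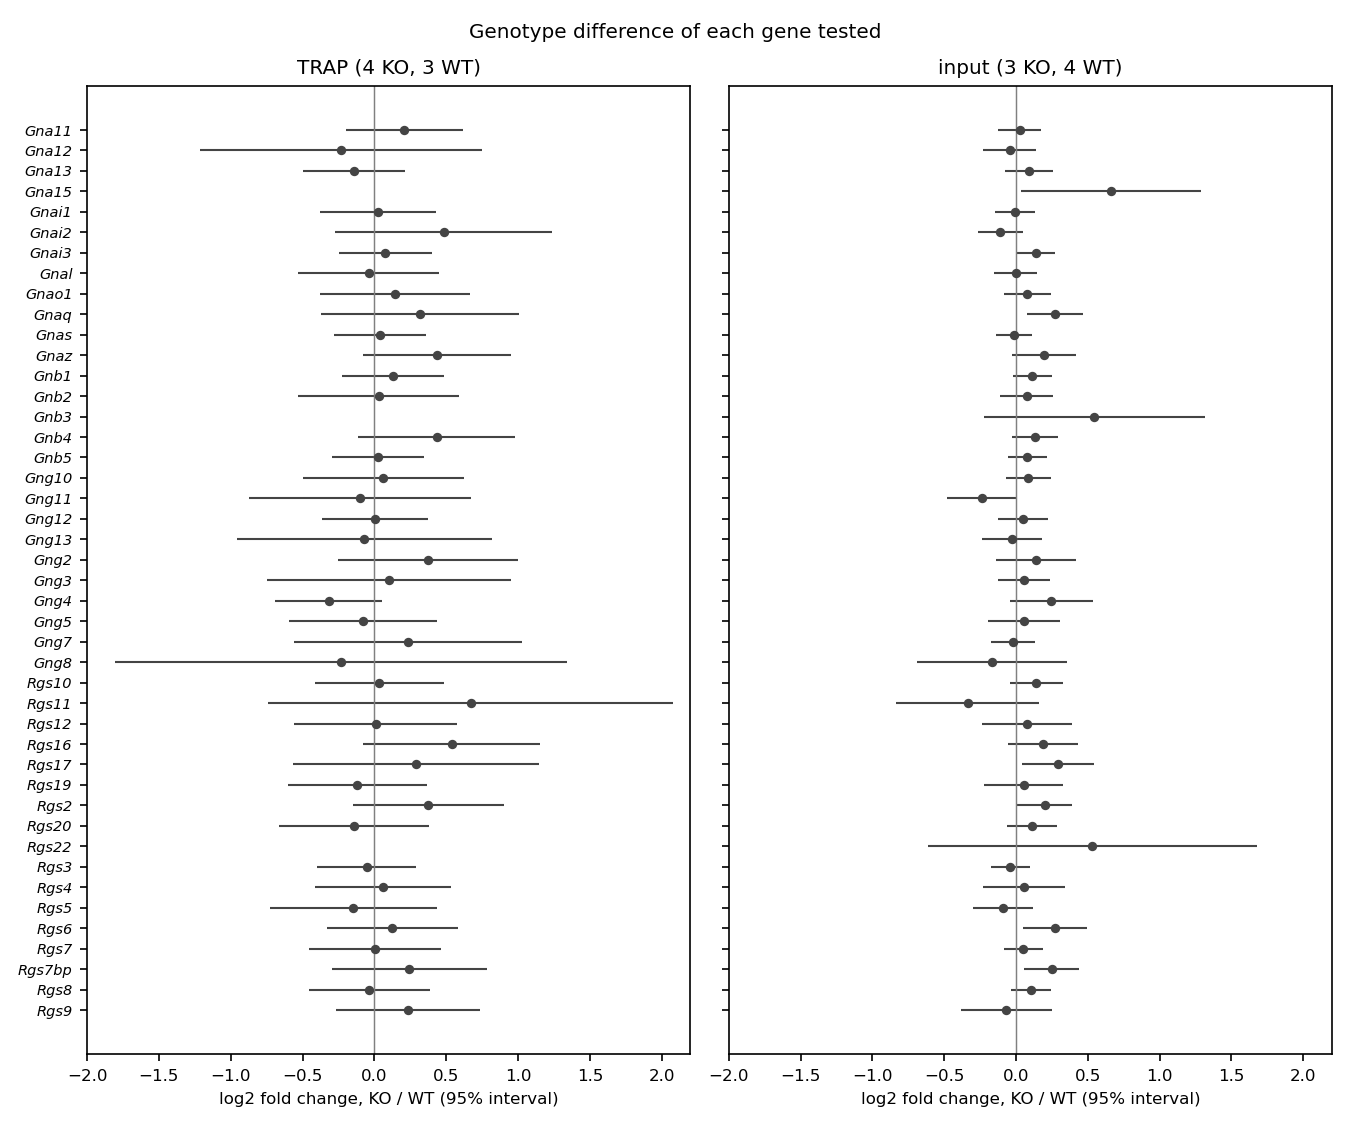
KO to WT log2 difference of each gene tested (edgeR estimate with its 95% interval) in TRAP (left, 41 genes) and input (right, 44 genes). Intervals in TRAP are wider for most genes, and 0 genes pass the threshold in either panel. Gnb3, Rgs22 and Gna15 were not tested in TRAP.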

How the data were processed

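The authors deposited a table of whole-number counts per Entrez gene for 14 libraries; the submitters' processing notes name Salmon 0.8.2 and mm10 without a role, so the counts may be rounded estimates, and strand and annotation are not given in the sources used here. Symbols and promoter windows came from RefSeq (GRCm38.p6) and transcript lengths from GENCODE M21. TRAP against input and the interaction were fitted over all 14 libraries, and KO against WT over the 7 libraries of a fraction, with edgeR 4.0.16 (quasi-likelihood, TMM, filterByExpr, sex as covariate, two-sided, Benjamini-Hochberg over all genes tested, threshold 0.05) in R 4.3.3. The script was tested on simulated counts with few changed genes, as many up as down, so that test does not bear on the scaling of TRAP against input. Alternatives included DESeq2 1.42.0, limma 3.58.1 with quality weights, library totals, other count filters, a replicate block and leaving out each library; leaving out the 5 libraries with choroid plexus RNA was added after seeing the data. No library pair was a duplicate: the chi-square per degree of freedom between replicates was at least 8.63. A floor of 3 counts was 0.0553 to 0.160 CPM by library, scaled by library totals without TMM factors. Each SE of a log2 value was derived from the edgeR test, as the size of the value divided by the square root of its F statistic.

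Library values were given for Gng13 and Rgs8, for up to 4 genes per family with the highest and lowest WT ratio among those past the threshold, for the smallest p in each genotype comparison, and for genes called in 1 genotype alone; Gnaq, Gna11, Gng3 and Rgs7 were also shown for their role or their overlap. Of each pathway list, up to 3 genes per direction were named, with Itpr1, Plcb1, Plcb2 and Kcnj9 added after their values were seen; some genes the rule would name are not reported here. The genes and lists were chosen with earlier results of these data known.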

Additional observations from a re-analysis of the deposited data

Results flagged for a closer look

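In 6 of 88 groups of 4 libraries, 1 library lay far from the other 3 by Dixon's ratio of the gap to the range on the log2(CPM + 1) scale (critical value 0.829); chance gives about 4.4 at 1 in 20. Gng7 in TRAP KO replicate 3 had the highest ratio, 0.958, at 6.49 CPM against 3.48 to 3.57 CPM in the others. Gng11 in TRAP KO replicate 4 was low, at 1.85 CPM against 3.78 to 4.21 CPM (ratio 0.858). Gnb5 in the same library was high, at 288 CPM against 268 to 271 CPM (0.872), as was Rgs19, at 11.8 CPM against 10.6 to 10.8 CPM (0.835). In input WT, Gnai1 in replicate 3 was high, at 249.2 CPM against 234 to 236 CPM (0.873), and Rgs2 in replicate 1 was low, at 13.6 CPM against 16.9 to 17.6 CPM (0.834). Of the 6, 3 fell in TRAP KO replicate 4. Groups of 3 libraries, TRAP WT among them, were not checked this way.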

How the results depend on the processing

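Of 961 values of single genes recomputed under alternatives in each genotype, 918 in WT and 929 in KO kept their direction and side of the threshold. Library totals moved most: 8 of the genes described were then higher in WT and 9 in KO, with no share over all genes to set beside them. Under them WT Gna11 (-0.64), Gnaz (-0.22), Gnb5 (-0.032) and Rgs7 (-0.40) and KO Gna11 (-0.36), Gnb5 (-0.0038), Rgs16 (-0.44), Rgs2 (-0.66) and Rgs7 (-0.39) turned below 0 on the log2 scale; that scaling omits the composition factor. Leaving out 1 library gave 35 to 39 genes called in WT and 36 to 41 in KO. With the median transcript length, shares in TRAP WT and input WT were 34.6% and 30.0% for Gnas, 72.9% and 59.7% for Gnb1, 94.4% and 35.1% for Gng13, and 97.1% and 90.8% for Rgs8; the length is the one thing changed there.

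Whether same-numbered input and TRAP libraries came from 1 animal is not stated, and they were not treated as paired. Deviations of same-numbered libraries correlated at 0.242, 0.227 and 0.089 in WT and at 0.202, 0.178 and -0.045 in KO. Across genotypes they correlated at -0.02, -0.107 and -0.058 in TRAP and 0.106, 0.151 and -0.08 in input. Ttr was high in replicates 2 and 3 of both WT fractions, but in KO replicate 2 in input alone (1080 CPM against 1.58 CPM in TRAP). These values do not settle the pairing. A replicate block gave 18 higher and 20 lower in WT and 17 and 18 in KO, of 43 genes tested, and 0 calls for genotype or interaction (edgeR). Under it Gna15 (adjusted p = 0.113) left and Gng3 (log2 -0.70, adjusted p = 0.0470) joined the WT calls, and Gna11 (0.0658) left those in KO. In TRAP, where the median SE was 0.23, small genotype differences were not detectable, and genes near 3 counts allow no firm ratio.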
